A study of Caenorhabditis elegans with 8 samples.

Results

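The gene folt-2, of the folate carrier family, was examined with 5 genes for enzymes of one-carbon metabolism (metr-1, sams-1, mthf-1, mel-32 and tyms-1). Their levels were read from reads that cross their introns, in whole adult Caenorhabditis elegans. The 6 genes are 6 of 5762 genes in the authors' junction table, and their 21 listed introns are 21 of 20324. They were picked by gene name, but folt-2 was chosen on its lower reads in the same contrast that is described here, between spk-1(RNAi) and control. Every value of folt-2 in that contrast is therefore a description with no test. Only comparisons that did not choose it carry a test for folt-2.

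Worms of the N2 wild-type strain were grown at 20 °C, moved at the fourth larval stage to feeding bacteria and kept on them for 24 h at 25 °C. The control bacteria carried the empty feeding vector L4440, and the others made double-stranded RNA of spk-1, the gene of the worm's SR protein kinase. Each group held 4 libraries of polyadenylated RNA from whole adults, with at least 100 worms per condition, so all tissues and the germline were mixed. The labels do not say whether replicates are separate cultures, and p-values here cover the spread among these libraries, which may be technical.

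Animals cannot make folate, and worms take it from the bacteria they eat through membrane carriers of the folt family. Inside the cell, MEL-32 loads tetrahydrofolate with a carbon unit taken from serine, and MTHF-1 reduces the loaded form further. METR-1 passes that methyl group to homocysteine and so makes methionine, which SAMS-1 turns into S-adenosylmethionine, the methyl donor of most methylation reactions. TYMS-1 uses a loaded folate to make the thymidine nucleotide needed for DNA.

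The libraries held 1821717 to 7938914 junction reads in replicates 1 and 2 of both groups and 28177090 to 47299659 in replicates 3 and 4. In the targeted gene spk-1, 8 of 10 listed introns had lower mean reads after spk-1(RNAi), with within-pair ratios of 0.0327 to 0.623 in 32 of 32 comparisons, and the other 2 introns had higher means; these 8 were picked by that direction. Summed over 7 listed muscle markers, scaled reads ran from 2575 to 9097 CPM (counts per 1000000 reads) in controls and from 3761 to 9452 CPM after spk-1(RNAi), but from 2575 to 5831 in replicates 1 and 2 and from 8603 to 9452 in replicates 3 and 4. The 5 listed intestine markers summed to 20043 to 41889 CPM in the control libraries and 24433 to 41705 after spk-1(RNAi). The 10 germline markers summed to 4740 to 6960 and 4532 to 6721 CPM, and the 4 hypodermis markers to 694 to 1369 and 1015 to 1704 CPM. All 4 tissues thus had reads in both groups, with overlapping ranges. Within pairs, 0 markers were called in edgeR's test with replicate number as a block. In it, 7 of 7 muscle markers had log2 fold changes above 0 (median 0.44, 4 at an unadjusted p under 0.05). So did 3 of 4 hypodermis markers (median 0.36, 2 under 0.05). Of all 5762 genes in that test, 51.2% were above 0 and 553 had an unadjusted p under 0.05. Muscle markers also differed together between replicates 1 and 2 and replicates 3 and 4 (6 of 7 called in edgeR), so they are not independent. The medians were 0.19 for intestine and -0.01 for germline markers. Their part in the values of folt-2 and the enzyme genes was not tested. Intestine sums also differed by replicate number, at 20043 to 25578 CPM in replicates 1 and 2 and 35101 to 41889 in replicates 3 and 4. Most of that sum came from the yolk genes vit-6 and vit-2, with control means of 16000 and 12700 CPM. In edgeR, vit-6 was higher in replicates 3 and 4 (1.19, adjusted p = 0.000487) and ifb-2 was lower (-0.69, adjusted p = 0.0257). The markers vit-2, cpr-6 and act-5 were not called.

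Reads of folt-2 (F37B4.7, chromosome V, minus strand), a member of the folate carrier family, were lower after spk-1(RNAi) in each of the 4 pairs. Levels are given as CPM scaled with TMM, a method that evens out differences in library composition. In the control libraries folt-2 had 78.1, 66.9, 106.0 and 134.1 CPM in replicates 1 to 4. After spk-1(RNAi) it had 45.8, 44.4, 19.5 and 50.9 CPM. The highest spk-1(RNAi) library lay below the lowest control library, so the groups did not overlap. Of all 5762 genes, 33 (0.573%) were lower without overlap, and 550 (9.55%) were lower in 4 of 4 pairs; folt-2 was chosen on this contrast, so nothing is read from its place among them.

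Mean folt-2 reads were 96.3 ± 30.1 CPM in the controls (SD, n = 4). After spk-1(RNAi) the mean was 40.1 ± 14 CPM, lower by a factor of 2.4. In whole worms, fewer cells of a type and less RNA per cell cannot be told apart. The spk-1(RNAi) level divided by that of its control was 0.586 and 0.663 in pairs 1 and 2, and 0.184 and 0.38 in pairs 3 and 4. The larger drops thus lay in the more deeply sequenced pairs, where both control libraries were also higher than those of replicates 1 and 2. The log2 fold change was -1.27 (SE 0.34), and -1.35 (SE 0.26) with replicate number as a block, which compares libraries within pairs. It was -0.69 (SE 0.29) in replicates 1 and 2 alone and -1.78 (SE 0.32) in replicates 3 and 4 alone.

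**Figure D1:**
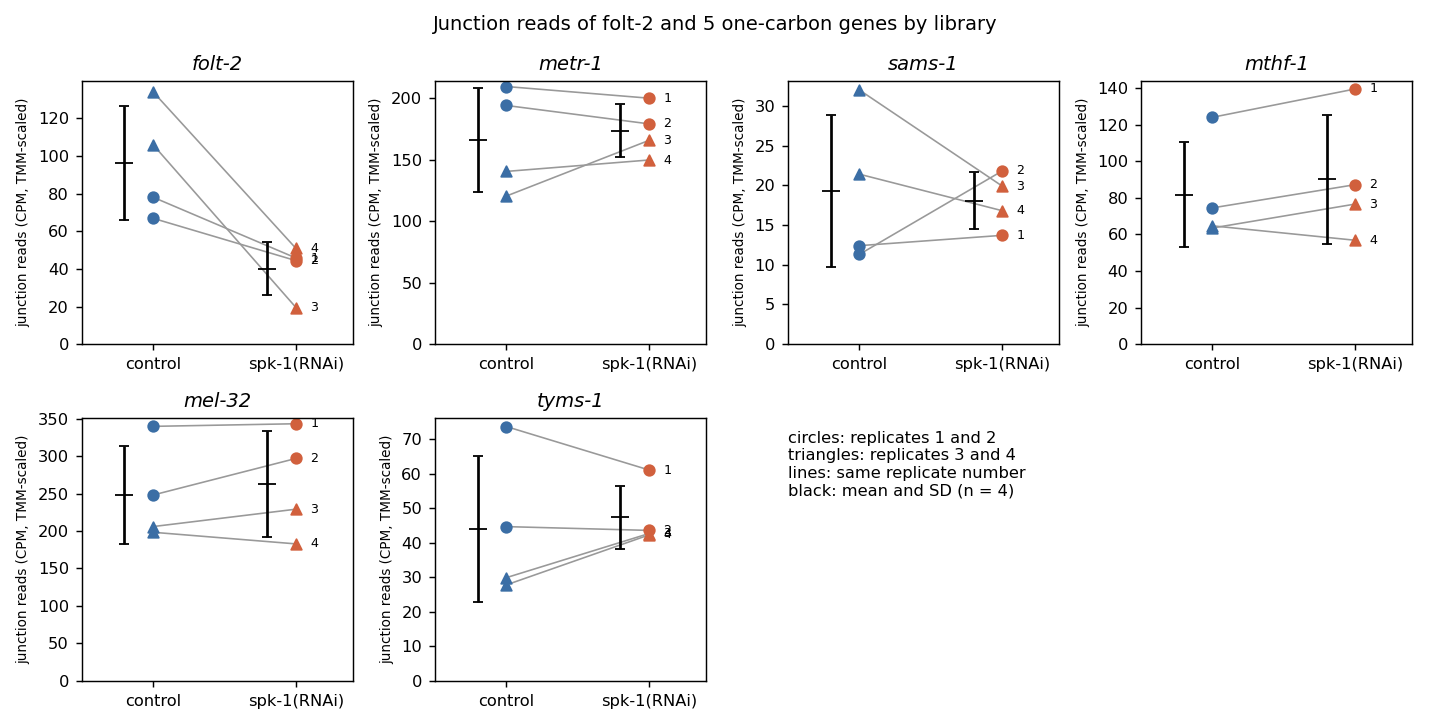
Junction reads of each gene in TMM-scaled CPM (vertical axis, from 0) in control and spk-1(RNAi) libraries, with grey lines joining libraries of the same replicate number and black bars for the mean and SD of 4 libraries. In folt-2 all 4 lines slope down and the groups do not overlap, from 66.9 to 134.1 CPM in the control libraries and from 19.5 to 50.9 CPM after spk-1(RNAi), while in the other 5 genes the groups overlap.

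The lower level of folt-2 was seen at each of its listed introns. The reference gene model has 4 introns, of which introns 1, 3 and 4, counted from the gene's start, were listed in the table. In ce10, intron 1 spans chrV:2874519-2875344 (826 nt), intron 3 spans chrV:2873280-2873675 (396 nt) and intron 4 spans chrV:2872815-2872859 (45 nt). Intron 2 was not analysed here. All 12 within-pair ratios over these introns were below 1, which is a description, since folt-2 was chosen on its lower reads in this contrast. The introns of 1 gene share its transcripts and are not independent.

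Over intron 1, folt-2 had 263, 63, 1382 and 1261 reads in controls and 70, 52, 199 and 345 after spk-1(RNAi). Scaled means were 35.5 ± 9.66 and 13 ± 5.62 CPM, a log2 fold change of -1.49 (SE 0.40), or -1.64 (SE 0.28) with the block. Over intron 3, it had 259, 48, 2242 and 1773 reads in controls and 84, 34, 405 and 798 after spk-1(RNAi). The scaled means there were 44.2 ± 22.7 and 17.7 ± 8.42 CPM, a log2 fold change of -1.34 (SE 0.47), or -1.34 (SE 0.25) with the block. Over the short intron 4, reads were 181, 37, 534 and 397 in controls and 73, 34, 89 and 221 after spk-1(RNAi). Its scaled means of 16.5 ± 2.72 and 9.51 ± 5.39 CPM gave a log2 fold change of -0.84 (SE 0.45), or -1.09 (SE 0.32) with the block. The ratio of spk-1(RNAi) to its control was higher over intron 4 than over intron 1 in 4 of 4 pairs, at 0.732, 0.752, 0.184 and 0.531 against 0.483, 0.675, 0.159 and 0.261. Each group's lowest counts are those of replicate 2, where 34 to 63 reads per intron limit the precision.

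**Figure D2:**
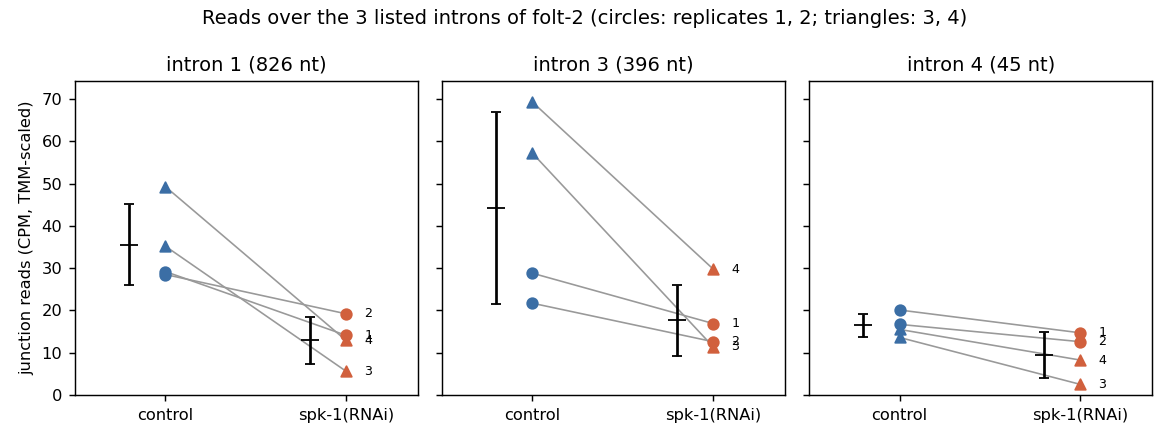
Reads over introns 1, 3 and 4 of folt-2 in TMM-scaled CPM by library, with lines joining the same replicate number and black bars for the mean and SD of 4 libraries. Every line slopes down, with ratios from 0.159 to 0.675 over intron 1, from 0.199 to 0.589 over intron 3 and from 0.184 to 0.752 over intron 4.

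The share of folt-2 reads on each intron showed how its listed junctions were divided. Intron 4 held 25.7%, 25.0%, 12.8% and 11.6% of folt-2 reads in control replicates 1 to 4, and 32.2%, 28.3%, 12.8% and 16.2% after spk-1(RNAi). The shares thus fell into the 2 library sets, replicates 1 and 2 against replicates 3 and 4, in both groups alike. By group, the shares were 18.8% ± 7.63 in controls and 22.4% ± 9.31 after spk-1(RNAi) for intron 4, 43.7% ± 10.7 and 45.6% ± 15.3 for intron 3, and 37.5% ± 3.85 and 32% ± 7.86 for intron 1 (SD, n = 4). These differences were smaller than the SD of the spk-1(RNAi) libraries, but that SD includes the gap between the library sets and ignores pairs. Within pairs, the intron 4 share was higher after spk-1(RNAi) in pairs 1, 2 and 4 and equal in pair 3. The intron 1 share was lower in pairs 1, 3 and 4 and higher in pair 2, and the intron 3 share was higher in pairs 1, 3 and 4 and lower in pair 2. Exact 95% binomial intervals of single folt-2 shares were 2.06 to 18.4 percentage points wide, and they cover counting error only.

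Among the 5 enzyme genes, none had a level that differed between spk-1(RNAi) and control in edgeR's quasi-likelihood test over all genes. The threshold was a Benjamini-Hochberg adjusted p of 0.05. The test called 0 of 5, and 0 of 5762 genes (0.0%) in the whole table, where 54 genes had an unadjusted p under 0.05. The adjusted p of each of the 5 was 1.0, and with the replicate block it was 0.713 to 0.94 in edgeR, with again 0 of 5762 genes (0.0%) called and 553 at an unadjusted p under 0.05. DESeq2 called 0 of the 5 as well, without and with the block (lowest adjusted p 1.0 and 0.795). In the whole table it called 0 genes (0.0%) when pairs were ignored, where 84 reached an unadjusted p under 0.05, and 56 genes (0.972%) when they were kept. The median log2 fold change of the 5 was 0.08, beside -0.00 over all genes, and 0.10 beside 0.01 with the block.

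The enzymes that load tetrahydrofolate and pass the carbon unit on were close to their control levels. The gene mel-32 (C05D11.11, chromosome III), for serine hydroxymethyltransferase, had 339.6, 248.0, 205.9 and 198.3 CPM in the control libraries and 343.1, 296.8, 229.1 and 182.8 CPM after spk-1(RNAi). Replicate 1 was highest and replicate 4 lowest in both groups, which overlapped over most of their range. Its log2 fold change with the block was 0.07, with a 95% interval of -0.16 to 0.31. That interval leaves out a change of the size described for folt-2, and without the block it ran from -0.51 to 0.67.

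For mthf-1 (C06A8.1, chromosome II), the methylenetetrahydrofolate reductase, the controls held 124.0, 74.5, 63.5 and 64.7 CPM and the spk-1(RNAi) libraries 139.5, 87.2, 76.6 and 56.8 CPM. It was higher in 3 of 4 pairs and lower in pair 4, and replicate 1 stood above the other libraries in both groups. The log2 fold change with the block was 0.11 (95% interval -0.15 to 0.38), and without the block the interval ran from -0.58 to 0.86. The estimate that ignores pairs was 0.41 when control replicate 1 was left out and -0.15 when spk-1(RNAi) replicate 1 was left out, each with an adjusted p of 1.0 in edgeR.

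The gene metr-1 (R03D7.1, chromosome II) encodes methionine synthase, which depends on vitamin B12. It had 209.7, 194.3, 120.5 and 140.6 CPM in the control libraries and 200.2, 179.3, 165.9 and 149.9 CPM after spk-1(RNAi). The spk-1(RNAi) libraries all lay inside the range of the controls. Its log2 fold change with the block was 0.10 (95% interval -0.17 to 0.37), and without the block the interval ran from -0.43 to 0.56.

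The S-adenosylmethionine synthetase gene sams-1 was read at only 1 of its introns. Its sequence name in the reference is C49F5.1, and the name given with the rule, C49F7.1, has no introns in the table. In ce10, this intron lies at chrX:11967113-11967159 and is the third intron of its reference models. It had 12.4, 11.3, 32 and 21.4 CPM in the control libraries and 13.7, 21.8, 19.9 and 16.8 CPM after spk-1(RNAi), from as few as 25 reads in control replicate 2. The spk-1(RNAi) libraries lay within the control range, and the log2 fold change with the block was -0.09, with a wide 95% interval of -0.66 to 0.49. Without the block the interval ran from -0.94 to 0.71. Reads of sams-1 are uncertain, since its close copies sams-3 and sams-4 could share reads in the authors' counting.

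The gene for the enzyme of thymidylate synthesis also had overlapping groups. For tyms-1 (Y110A7A.4, chromosome I), the thymidylate synthase gene, the controls held 73.7, 44.7, 29.9 and 27.8 CPM and the spk-1(RNAi) libraries 61.1, 43.6, 42.7 and 42.3 CPM. The spk-1(RNAi) libraries lay inside the control range, and the log2 fold change with the block was 0.22 (95% interval -0.16 to 0.61). That interval does not exclude rises of up to 0.61, and without the block it ran from -0.63 to 0.85.

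**Figure D3:**
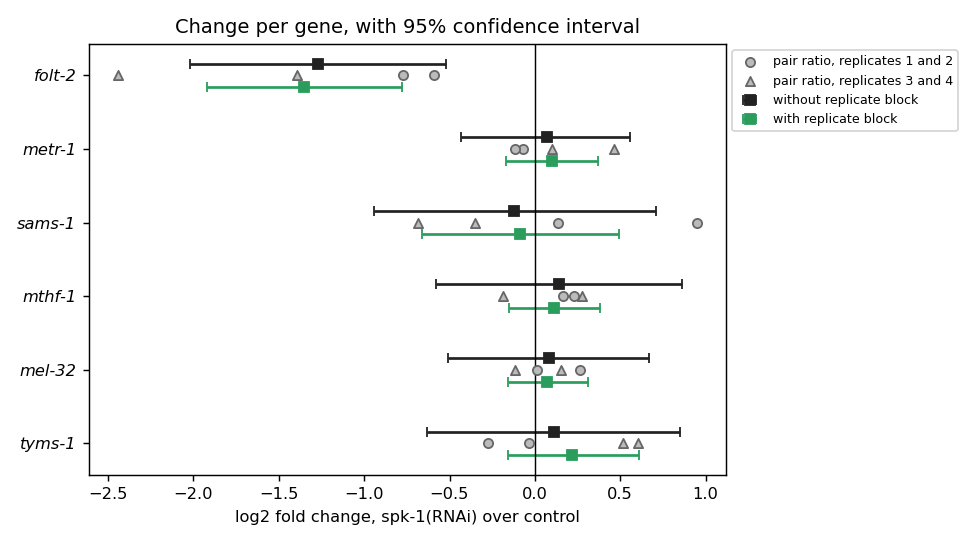
Log2 fold change of spk-1(RNAi) over control (horizontal axis) for each gene, as fitted values with 95% confidence intervals without and with replicate block, and grey points for the ratio within each pair. The folt-2 points all lie to the left of 0, with fitted values of -1.27 and -1.35, and each interval of the other 5 genes spans 0; folt-2 was chosen on this contrast.

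In 3 of the enzyme genes the pairs of the 2 library sets moved in opposite directions. Divided by their controls, the spk-1(RNAi) levels of sams-1 were 1.1 and 1.93 in pairs 1 and 2, and 0.621 and 0.785 in pairs 3 and 4. For tyms-1 the ratios were 0.828 and 0.975, then 1.43 and 1.52. For metr-1 they were 0.954 and 0.923, then 1.38 and 1.07. Such a split was found in 671 of 5762 genes (11.6%). The difference of the change between library sets, tested as an interaction term in edgeR, had an adjusted p of 1.0 for each of the 5, and it called 0 of 5762 genes (0.0%), with 104 at an unadjusted p under 0.05. This test was added after the data were seen. For folt-2 the fitted difference was -1.08 (SE 0.53) on the log2 scale, in the direction of a larger drop in replicates 3 and 4, and is a description.

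The introns of the 5 enzyme genes were tested singly as well. Of their 18 listed introns, 0 were called in edgeR's test per intron, without the block (0 of 20324 introns called, 0.0%, and 173 at an unadjusted p under 0.05) or with it (14 called, 0.0689%). Log2 fold changes with the block ran from -0.22 to 0.38, and the lowest unadjusted p was 0.104. Both ends of that range were introns of mthf-1. Intron 4 of mthf-1 (chrII:7774905-7774951) had the highest value, 0.38 (SE 0.22), and was higher in 4 of 4 pairs with ratios of 1.08, 2.19, 1.16 and 1.26. Its ratio of 2.19 in pair 2 rests on 59 reads against 22 in the control. Intron 5 of mthf-1 (chrII:7774442-7774490) had the lowest value, -0.22 (SE 0.22), and its ratio was 0.477 in pair 4 and 0.954 to 1.15 in the others.

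Whether any intron moved apart from the rest of its gene was tested with diffSpliceDGE in the 4 enzyme genes with more than 1 listed intron. The adjusted p was 1.0 in each without the block and 0.989 in each with it, so 0 of 4 were called, and 0 of 4 had an unadjusted p under 0.05. The test called 1 of 4370 genes (0.0229%) without the block and 3 (0.0686%) with it. In the authors' deposited table of exon bins, 0 of 41 tested bins of the 5 enzyme genes had an adjusted p under 0.05, as did 4 of 112784 bins in all (0.00355%). In the authors' deposited table of junctions, the lowest p-value among the 18 introns was 0.0671. The authors' p was under 0.01 in 0 of the 18 introns, beside 256 introns (1.26%) of the whole table.

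Levels were compared between genes per listed intron, which takes out the number of junctions. In controls, mel-32 had the highest level, at 62.0 ± 16.2 CPM per intron (SD, n = 4), followed by folt-2 at 32.1 ± 10. Below them, metr-1 had 23.8 ± 6.08, tyms-1 22 ± 10.6, mthf-1 20.4 ± 7.17 and sams-1 19.3 ± 9.62 CPM per intron. These 4 neighbours differed by less than their SD. The gap between folt-2 and metr-1 was within the SD of folt-2 but not that of metr-1. After spk-1(RNAi), folt-2 had 13.4 ± 4.68 CPM per intron and stood last of the 6 genes, below sams-1 at 18.0 ± 3.55. That difference was within the SD of folt-2 but not that of sams-1. Since folt-2 was chosen on its lower reads after spk-1(RNAi), nothing is read from its last place. Introns that were not listed are left out of these levels.

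The larger difference for most of the enzyme genes lay between the library sets. Reads of 4 of the 6 genes were lower in replicates 3 and 4 than in replicates 1 and 2 in edgeR's test with group as a term, against 1395 of 5762 genes (24.2%) called lower and 2899 (50.3%) called in either direction. The median log2 difference of the 5 enzyme genes was -0.59, beside -0.06 over all genes. All tests between the library sets treat the control and spk-1(RNAi) libraries of a replicate number as independent. Such libraries deviated together, so the SEs and p-values of these tests may be too small. Each SD of 4 libraries in a set covers only 2 replicate numbers. What set replicates 3 and 4 apart from 1 and 2 is not given by the labels. The depth and the muscle and intestine marker sums given above moved with the sets, though of the intestine markers only vit-6 was called higher. The part of depth and tissue markers in these differences was not tested.

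For mthf-1 the log2 difference was -0.71 (SE 0.20, adjusted p = 0.0129 in edgeR). Its level was 106 ± 30.5 CPM in replicates 1 and 2 and 65.4 ± 8.27 CPM in replicates 3 and 4 (SD, n = 4), and the sets overlapped. For tyms-1 the difference was -0.68 (SE 0.22, adjusted p = 0.0251), from 55.8 ± 14.4 to 35.7 ± 7.93 CPM. For mel-32 the difference was -0.59 (SE 0.15, adjusted p = 0.00804), and for metr-1 it was -0.45 (SE 0.14, adjusted p = 0.0193), all in edgeR. The sets did not overlap for metr-1, mel-32 and tyms-1, 3 of the 6 genes, and 1260 of 5762 genes (21.9%) were lower in replicates 3 and 4 without overlap.

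The calls of metr-1 and tyms-1 depended on which libraries were kept. Without control replicate 1, 3 or 4 the adjusted p in edgeR was 0.0555, 0.0821 or 0.0586 for metr-1 and 0.0954, 0.0862 or 0.0956 for tyms-1. The other 2 genes, sams-1 and folt-2, were not lower. The difference of sams-1 was 0.61 (SE 0.30, adjusted p = 0.11 in edgeR). With spk-1(RNAi) replicate 2 left out it was 0.87 (adjusted p = 0.0238 in edgeR). For folt-2 it was 0.19 (95% interval -0.47 to 0.86, adjusted p = 0.614 in edgeR), a test independent of the contrast that chose it. With single libraries left out, that difference ran from 0.02 to 0.51. It was 0.51 without spk-1(RNAi) replicate 3, the library in which folt-2 was lowest. Leaving that library out unbalances the groups and ties the value to the contrast that chose folt-2, so it is a description.

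**Figure D4:**
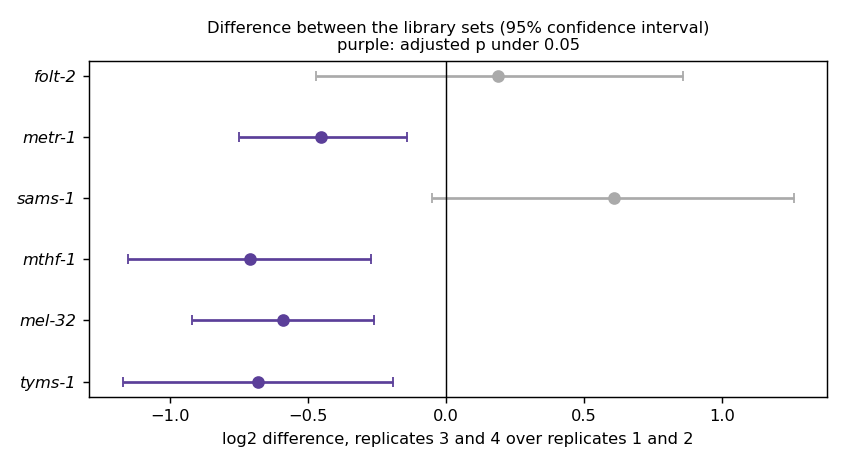
Log2 difference between replicates 3 and 4 and replicates 1 and 2 of both groups (horizontal axis), with 95% confidence intervals, for each gene. The intervals treat libraries of the same replicate number as independent and may be too narrow. The 4 purple points, from -0.71 in mthf-1 to -0.45 in metr-1, have an adjusted p under 0.05, and the grey points of folt-2 (0.19) and sams-1 (0.61) do not.

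The library sets also divided the reads of a gene among its introns in different ways. Of the 5 genes with more than 1 listed intron, 3 were called by diffSpliceDGE between the sets, against 2719 of 4370 genes (62.2%) in the table, so the share among these genes was near that of all genes. These were mel-32 (adjusted p = 2.46e-05), tyms-1 (0.00641) and folt-2 (0.016), whereas metr-1 (0.0688) and mthf-1 (0.119) did not pass in this edgeR test, which was added after the data were seen. In folt-2, intron 4 held 27.8% ± 3.23 of the reads in replicates 1 and 2 and 13.4% ± 1.98 in replicates 3 and 4, and intron 3 held 33.7% ± 4.13 and 55.6% ± 3.4 (SD, n = 4). Neither pair of ranges overlapped, and the long intron 1 held 38.5% ± 5.77 and 31.0% ± 5.03, with overlap.

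In mel-32 the widest gap was at intron 3 (chrIII:6441253-6441300), with 37.8% ± 3.76 of the reads in replicates 1 and 2 and 16.3% ± 1.71 in replicates 3 and 4. Intron 1 of mel-32, counted in model C05D11.11b.1, held the fewest reads in each set, 5.92% ± 2.34 and 10.9% ± 2.35. Model C05D11.11a.1 of the same gene lacks this intron. In tyms-1, whose 2 introns were both listed, intron 1 held 45.8% ± 4.96 and 66.7% ± 3.15 of the reads.

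**Figure D5:**
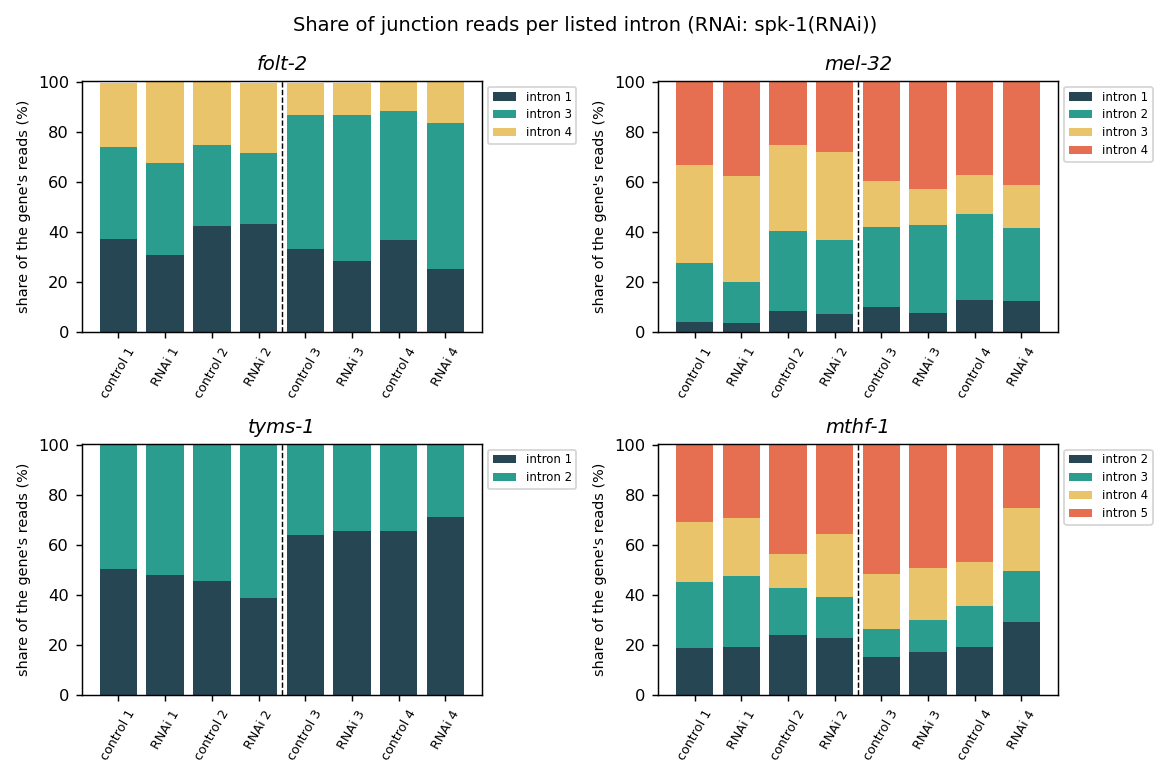
Share of each gene's junction reads on each listed intron, in percent (vertical axis), for the 8 libraries in order of replicate number, with a dashed line between replicates 1 and 2 and replicates 3 and 4. For intron 4 of folt-2, intron 3 of mel-32 and intron 1 of tyms-1, bars change more at the dashed line than between control and spk-1(RNAi). Intron 4 of folt-2 held 25.0% to 32.2% on the left and 11.6% to 16.2% on the right. Not all introns did so. In pair 4, intron 1 of folt-2 went from 36.8% in the control to 25.3%, and intron 5 of mthf-1 from 46.7% to 25.4%.

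Other genes of the pathway were taken from 5 lists of 32 genes, of which 18 were listed in the table. Of these 18, 0 were called between spk-1(RNAi) and control by edgeR without the block (lowest adjusted p 1.0) or with it (0.468), and by DESeq2 with the block. With the block 1 of 18, cth-2, had an unadjusted p under 0.05. Their median log2 fold change was 0.04, and 12 of 18 had values above 0, beside 49% of all genes. The paralogs of folt-2, folt-1 and folt-3, had no listed introns. In the authors' deposited table of exon bins, the mean signal was 19.1 to 31.0 per bin for folt-1, 0.00 to 2.24 for folt-3 and at most 1240 for folt-2, a signal that is not per length and gives no direction of change.

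In the methionine cycle, 7 of 8 genes were listed. The largest log2 fold change was that of pmt-1, a phosphoethanolamine methyltransferase that uses S-adenosylmethionine, at 0.30 (SE 0.26), and the smallest was that of sams-4 at -0.11 (SE 0.21). Between the library sets, pmt-2 (-0.59, adjusted p = 0.00829) and the cobalamin-processing gene cblc-1 (-0.97, adjusted p = 0.0123) were lower in replicates 3 and 4 in edgeR. The only listed gene of transsulfuration, cth-2, for cystathionine gamma-lyase, had a log2 fold change of 0.38 (SE 0.48) and was higher in replicates 3 and 4 by 1.19 (adjusted p = 0.00378 in edgeR).

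Of 9 genes of folate interconversion and glycine cleavage, 6 were listed. The log2 fold change was largest for alh-3, a homolog of formyltetrahydrofolate dehydrogenase, at 0.47 (SE 0.41), and smallest for dld-1, the shared dihydrolipoamide dehydrogenase, at -0.15 (SE 0.37). In edgeR's test between the library sets, the glycine cleavage genes gcst-1 (0.77, adjusted p = 0.00247) and dld-1 (0.94, adjusted p = 0.00182) were higher in replicates 3 and 4. In the same test gcsh-2 (-0.79, adjusted p = 0.00887), gldc-1 (-0.64, adjusted p = 0.0464) and F25B5.6 (-0.60, adjusted p = 0.0161) were lower. Genes of the glycine cleavage complex thus lay on both sides. Of 9 genes of purine and deoxynucleotide synthesis, 4 were listed, with log2 fold changes from -0.01 (SE 0.26) for the adenylosuccinate lyase gene adsl-1 to 0.21 (SE 0.28) for the dUTPase gene dut-1. The ribonucleotide reductase gene rnr-2 was higher in replicates 3 and 4 by 0.65 (adjusted p = 0.00598 in edgeR). In all, 9 of the 18 were called between the sets, 5 of them lower, near the 50.3% and 24.2% of all genes.

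The genes whose pattern across pairs was most like that of folt-2 were found by Pearson's r of log2 CPM, centred on the mean of each replicate number, over the 8 libraries. Centring leaves only 4 independent differences, shared between genes through the libraries, so r is a description. The highest values were those of K07A12.1 (0.999), Y48A6C.4 (0.999), ZK1248.11 (0.995), acdh-1 (0.995) and magu-1 (0.995). Of these, acdh-1, which encodes an acyl-CoA dehydrogenase of the propionate shunt, changed by the most, with spk-1(RNAi) to control ratios of 0.663, 0.586, 0.222 and 0.419 in pairs 1 to 4. The ratios of K07A12.1 were 0.877, 0.899, 0.693 and 0.811. That these 5 genes had their lowest ratio in pair 3, as folt-2 had, follows from how they were picked. They differed in the size of the drop.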

How the data were processed

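RNA of whole adult worms was measured in 4 control and 4 spk-1(RNAi) libraries. Per the file headers, the authors deposited read counts per intron and library, not normalized, with a p-value per intron, and a second table with a normalized mean signal and p-values per exon bin. Every listed intron had more than 20 reads in each control library. Tools given in the submitters' processing notes are TopHat 1.4.1 and Bowtie2 2.0.0, with the build ce10; the counting program is not given in the sources used here. A heading shared by 2 columns was resolved through the authors' ratios, which equalled the quotient of same-numbered reads in 100% of introns and of others in at most 2.3%, compared over up to 6 leading digits. Unused columns of per-sample values numbered 0. Of 20349 rows, 25 introns stood on both strands and 1 copy was kept; 160 introns without a gene stayed out of the sums per gene. Introns were numbered by matching their lengths and spacing to WBcel235 gene models, while coordinates are those of ce10, counted from 1. Intron numbers of mel-32 and mthf-1 follow models C05D11.11b.1 and C06A8.1a.1, and other models of these genes can number them differently.

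Counts per intron, and summed per gene, were tested with edgeR 4.0.16 (quasi-likelihood test, TMM, filterByExpr, Benjamini-Hochberg over all features) and DESeq2 1.42.0 in R 4.3.3, and intron usage with diffSpliceDGE. Junction reads describe spliced RNA only. Same-numbered libraries deviated together (correlations of 0.88, 0.68, 0.71 and 0.75 for pairs 1 to 4), though crossed numbers within replicates 3 and 4 gave nearly the same (0.70 and 0.68), and the authors' ratios divide them, so a fit with the replicate block stands beside the one without it. Simulated counts gave both libraries of a pair the same mean apart from the added changes, with noise estimated from the fit with the block. Recovery with the block is therefore a best case. On simulated counts for 5762 genes, the test called 8% of 2-fold and 71% of 4-fold changes without the block, with 0 false calls. With the block it called 98% and 100%, with 14 false calls. Per intron, 4-fold changes were called in 0% without the block and 99% with it, and in intron usage in 15.5% and 100%, so counts of 0 there without the block carry little information. No 2 libraries of a group agreed within sampling noise. The genes and lists were chosen with earlier results of these data known, and 1 further gene of the set is not reported here. Named genes are the 6 genes, listed pathway genes that passed a test or had the largest and smallest fold change of their list, and the 5 most like folt-2. Alternatives were other scaling, other filters, left-out libraries and left-out spk-1 introns.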

Additional observations from a re-analysis of the deposited data

Results flagged for a closer look

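Levels and intron shares of the 6 genes were searched for single libraries far from the other 3 of their group (Dixon's test), and 1 of 52 groups was flagged, where chance flags about 1 in 20. For tyms-1, spk-1(RNAi) replicate 1 stood apart at 61.1 CPM, with the other 3 libraries at 42.3 to 43.6 CPM. Replicate 1 was also the highest of the controls, at 73.7 CPM, with the others at 27.8 to 44.7 CPM.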

How the results depend on the processing

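Every value of folt-2 between spk-1(RNAi) and control stayed below 0 in the 24 other settings, from -1.92 to -0.69 on the log2 scale, and from -1.41 to -1.04 with single libraries left out. Since folt-2 was chosen on this contrast in these libraries, its sign could hardly change, and these values are a description. None of the other 5 genes was called between spk-1(RNAi) and control in any of the 24 settings. For tyms-1 the estimate was 0.55 in replicates 3 and 4 alone (adjusted p = 0.438 in edgeR, or 0.207 with the replicate block), and for mel-32 it was 0.27 without control replicate 1. Between the library sets, the changed calls of metr-1, tyms-1 and sams-1 and the range of folt-2 are given above. In intron usage, mthf-1 was called between the sets without spk-1(RNAi) replicate 4 (adjusted p = 0.0447 in edgeR).

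Counts over the whole table moved more. Genes called between spk-1(RNAi) and control rose from 0 to 7 in replicates 3 and 4 alone, to 17 with the replicate block in replicates 2 and 3 alone, to 213 with the block in replicates 3 and 4 alone, and to 56 with DESeq2 and the block. With the block and 1 pair left out there were 0 to 7, with 5 without pair 1. Introns called rose from 0 to 14 with the block, 55 in replicates 3 and 4 alone, 14 with the block in replicates 2 and 3 alone, 286 with it in replicates 3 and 4 alone, 2 with it and without spk-1 introns, 6 with DESeq2 and 51 with DESeq2 and the block. With 1 pair left out and the block there were 11 to 29, with 12 without pair 3. Genes called in intron usage went from 1 to 3 with the block, 20 in replicates 3 and 4 alone, 0 without spk-1 introns, 3 with the block in replicates 2 and 3 alone, 32 with it in replicates 3 and 4 alone and 2 with it and without spk-1 introns, or 3 to 4 with 1 pair left out. Causes were not tested. A count minimum of 30 removed 0 introns, since the lowest sum was 240. Replicate 2, with as few as 22 reads at an intron of these genes, limits the precision.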
